A study of Rattus norvegicus with 36 samples.

Results

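The genes described here are those whose messenger RNA was far lower in one control rat, Saline 2, than in all other rats of the series. A gene was taken if it averaged at least 5 CPM (counts scaled to a common library total of 1000000) over the 8 other rats, had at least 20 counts in each of them, and if its CPM in Saline 2, plus 0.05, lay below 12.5% of that average. The rule kept 161 of 32402 listed genes, which is 1.43% of the 11283 genes that met its CPM and count minima. The members were therefore chosen by their level in Saline 2, and every comparison of that rat with the others below is a description without a test. The working name for them, genes lost in Saline 2, was too strong for the data. Each of the 161 was still detected there, with between 5 and 1265 counts and a median of 44.

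The 9 rats were Sprague-Dawley animals aged 8 weeks, 3 in each of 3 groups, and their RNA is labelled as nucleus accumbens. Saline rats received 4 injections of physiological serum, 15 days of withdrawal and 1 further serum injection. CPPE and nCPPE rats received cocaine on the same schedule, 1 conditioning injection per day, with a final challenge dose of 5 mg/kg given intraperitoneally. CPPE rats, labelled dependent, expressed a conditioned place preference for cocaine, and nCPPE rats, labelled non dependent, did not. The final preference test lasted 18 min in all groups. Where the tissue label names the accumbens alone, the extraction protocol names the caudate putamen beside it.

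The nucleus accumbens is the ventral part of the striatum. Most of its neurons are GABAergic medium spiny neurons, which receive dopamine from the midbrain and glutamate from cortex, hippocampus and amygdala, and it borders the septum, the caudate putamen, the ventral pallidum and the olfactory tubercle. These neurons are textbook carriers of dopamine receptors and striatal neuropeptides, while astrocytes, oligodendrocytes, microglia and vascular cells make up the rest of the tissue. The deposited files name genes by Ensembl identifier only. The RefSeq table used for names (assembly GRCr8) matched 0 of the 161 members, so the cell type or tissue that they mark, and the markers of the labelled tissue, were not analysed here. No gene symbol, function, promoter or coordinate is given for the same reason, and members are named by identifier.

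Depth did not set Saline 2 apart. It had 29142265 counts, within the range of 27724289 to 39067715 over all rats. Fewer genes were detected in it, however, 18351 beside 19023 to 19319 in the other rats. The 161 members together took 0.0562% of the counts of Saline 2 (16374 counts). They took 0.671% in Saline 1 and 0.667% in Saline 3. In the CPPE rats the share was 0.539%, 0.538% and 0.635%, and in the nCPPE rats 0.587%, 0.464% and 0.575%. The share was thus higher in every other rat than in Saline 2, highest in the remaining Saline rats and lowest, of the 8, in nCPPE 2. In tissue RNA, fewer cells of a type and less RNA per cell cannot be told apart.

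Members in Saline 2 lay between 3.34% and 12.4% of the mean of the 8 other rats, with a median of 9.85%. These percentages, and the later percentages and folds lower, include the amount that the rule adds to the CPM of Saline 2. The share given by CPM alone is lower, most of all for members of low abundance. Over all 11283 genes that met the minima the median was 97.6%. Of the members, 86 were over 10-fold lower, 21 over 16-fold lower and 12 over 20-fold lower in Saline 2. With that amount included, the members' median share lay between 9.25% and 10.2% from low to high abundance. The rule held this share below 12.5% at every abundance, so similar medians were largely set by the choice of members. They do not show whether the shortfall in Saline 2 depended on abundance. The added amount raises the share most at low abundance, so shares by CPM alone were not compared across abundance. The 34 members averaging 5 to 10 CPM kept a median of 9.89%, the 55 at 10 to 20 CPM 9.97%, the 43 at 20 to 50 CPM 9.25%, the 15 at 50 to 100 CPM 9.78%, and the 14 above 100 CPM 10.2%. Of the 11283 genes, 0 were over 8-fold higher in Saline 2 than the mean of the 8 rats, the highest being at 651% of it. With the whole rule turned round, so that the minima of 5 CPM and 20 counts applied to Saline 2 alone, 1 gene was over 8-fold higher. Applied to each other rat against the remaining 7 (Saline 2 left out), the same rule kept 2 genes in Saline 1, 1 in nCPPE 2 and 0 in each of the other 6 rats.

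**Figure D1:**
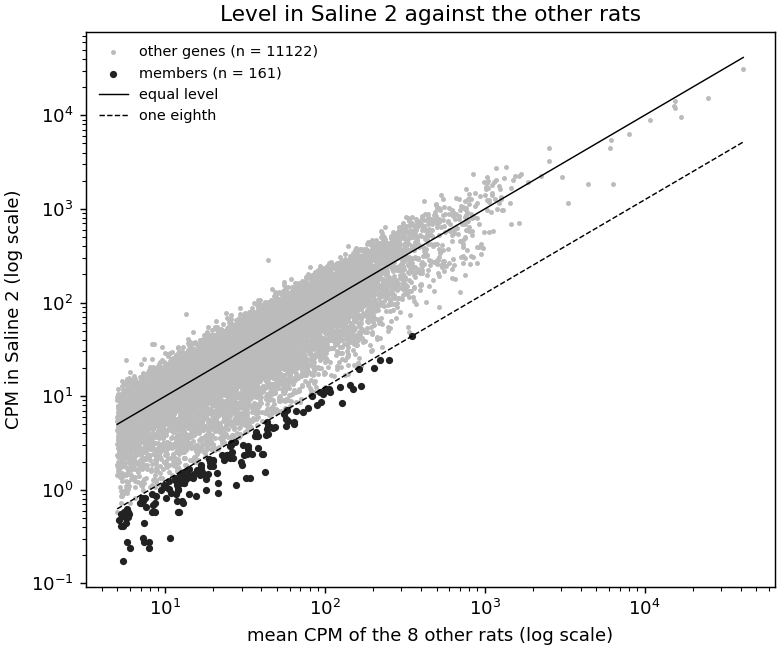
CPM in Saline 2 (vertical, log scale) against the mean CPM of the 8 other rats (horizontal, log scale) for the 11283 genes that met the minima, with 1 point per gene. The 161 members (black) lie below the dashed line at one eighth of the mean, and their own mean CPM ran from 5.13 to 350. Most other genes (grey) lie around the line of equal level.

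The member lowest relative to the other rats was ENSRNOG00000051406. It had 15.5 and 14.7 CPM in Saline 1 and 3, 8.09, 5.68 and 12.4 CPM in the CPPE rats, and 11.5, 6.99 and 10.9 CPM in the nCPPE rats. In Saline 2 it had 9 counts, or 0.309 CPM (95% Clopper-Pearson interval 0.141 to 0.586). The next, ENSRNOG00000012671, was even across the other rats, at 6.27 to 8.86 CPM, and had 0.240 CPM in Saline 2 (interval 0.0966 to 0.495). These intervals cover counting error only. The most abundant member, ENSRNOG00000005479, had 386 and 395 CPM in Saline 1 and 3, 359, 311 and 395 CPM in CPPE, 350, 238 and 367 CPM in nCPPE, and 43.4 CPM in Saline 2. It was among the members nearest the threshold, at 12.4% of the mean. ENSRNOG00000015133 followed in abundance, with 202 to 279 CPM in the 8 rats and 24.1 CPM in Saline 2.

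Levels ran on across the threshold without a gap. With the amount added by the rule, the 3 members just inside it had 12.38%, 12.416% and 12.417% of the mean in Saline 2. The 3 genes just outside, measured in the same way, had 12.51%, 12.56% and 12.58%.

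The 4 technical replicates of Saline 2 gave the members the same low level. Their summed level was 562, 566, 552 and 567 CPM in replicates a to d, beside 4641 to 6709 CPM in the other rats. Among the 93 members with at least 40 counts in Saline 2, a chi-square comparison of the replicates gave 0.922 per degree of freedom, and 2 of them had p below 0.05. The low level was therefore shared by the 4 technical replicates, which differed for these members by no more than counting noise. As replicates of the same rat, they give no independent measure of its level.

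Among the 8 other rats the members covered a wider range than genes at large. The ratio of the highest to the lowest rat had a median of 1.62 over members, beside 1.27 over all genes that met the minima. It was over 1.5 for 109 members (67.7%, beside 15.8% of those genes) and over 2 for 32 members (19.9%, beside 3.15%). The rats at the ends were mostly the same. nCPPE 2 was the lowest of the 8 in 109 of 161 members (67.7%), beside 16.3% of all genes that met the minima. Saline 1 was the highest in 66 and Saline 3 in 49, together 115 members (71.4%), beside 18.9% of those genes. No member was lowest in Saline 1, and 2 were lowest in Saline 3. These shares describe genes measured in the same libraries, which are not independent.

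**Figure D2:**
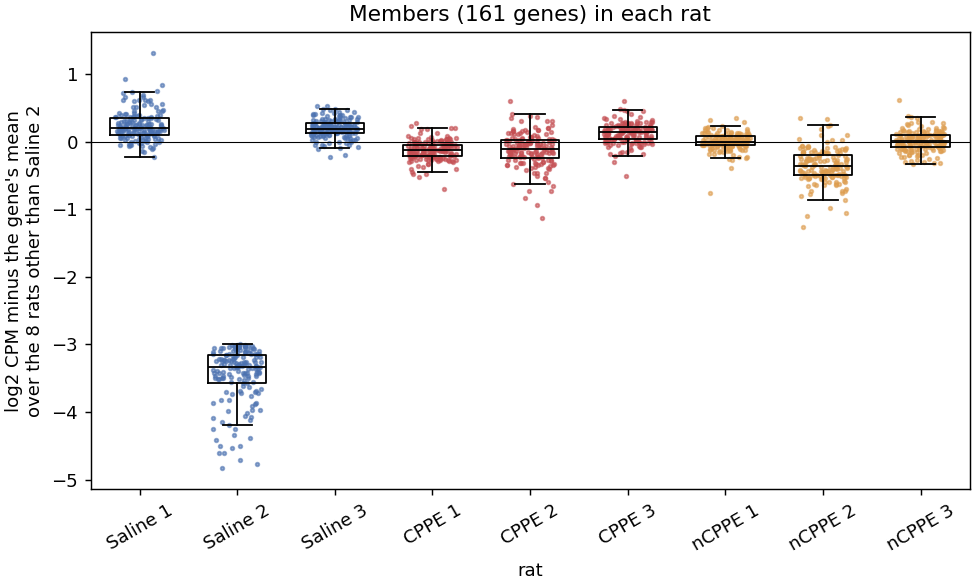
Each point is 1 of the 161 members, placed by its log2 CPM in a rat minus its mean over the 8 rats other than Saline 2. Boxes show median and quartiles, and whiskers reach the farthest gene within 1.5 box lengths. Saline 2 lies around a median of -3.33 by the choice of the genes, Saline 1 and Saline 3 lie above 0, and nCPPE 2 lies lowest of the other rats.

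On the log2 scale the median deviation of the members from their mean over the 8 rats was 0.20 in both Saline 1 and Saline 3. It was -0.13, -0.10 and 0.14 in the CPPE rats and 0.00, -0.35 and 0.01 in the nCPPE rats. Over the remaining genes that met the minima, the median deviation stayed between -0.05 and 0.04 in every one of these rats. CPPE 3 lay nearer to the Saline rats than to the other CPPE rats, so the order of the rats crossed the groups. Between rats of a group, the median deviation had a pooled SD of 0.16 on the log2 scale.

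The most variable member was ENSRNOG00000004947. Its level was 16.9 and 9.74 CPM in Saline 1 and 3, 4.14, 3.05 and 10.3 CPM in CPPE, 8.42, 3.13 and 7.54 CPM in nCPPE, and 0.275 CPM in Saline 2. CPPE 2 and nCPPE 2 were its lowest rats after Saline 2, and both cocaine groups held low and higher rats. ENSRNOG00000060806 ran from 2.81 CPM in nCPPE 2 to 10.5 CPM in nCPPE 3, within a single group. At the other end, ENSRNOG00000003803 was nearly constant, at 109 and 108 CPM in Saline 1 and 3, 97.7, 99.3 and 103 CPM in CPPE and 98.5, 96.6 and 104 CPM in nCPPE, against 12.0 CPM in Saline 2. ENSRNOG00000016289 was as steady, between 10.5 and 12.4 CPM in the 8 rats, and had 1.27 CPM in Saline 2. A low level in Saline 2 was thus found both for genes that varied over 3-fold among the other rats, 6 in number, and for genes that hardly varied.

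Genes with a smaller shortfall in Saline 2 showed smaller deviations in the same direction in Saline 1, Saline 3 and nCPPE 2, the rats at the ends for most members. For the 514 genes at 12.5% to 25% of the mean in Saline 2, the median log2 deviation was 0.10 in Saline 1, 0.13 in Saline 3 and -0.20 in nCPPE 2. For the 1509 genes at 25% to 50% it was 0.05, 0.08 and -0.08. For the 580 genes at 200% to 400% of the mean the direction was turned in these 3 rats, with -0.08, -0.11 and 0.10. It was not turned in CPPE 1, at -0.13 for the members and -0.05 for these 580 genes. Nor was it turned in CPPE 3, at 0.14 and 0.05, or in nCPPE 3, at 0.01 and 0.07. The bands were cut on Saline 2, whose own values do not enter the deviations, although the mean of the 8 rats enters both.

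**Figure D3:**
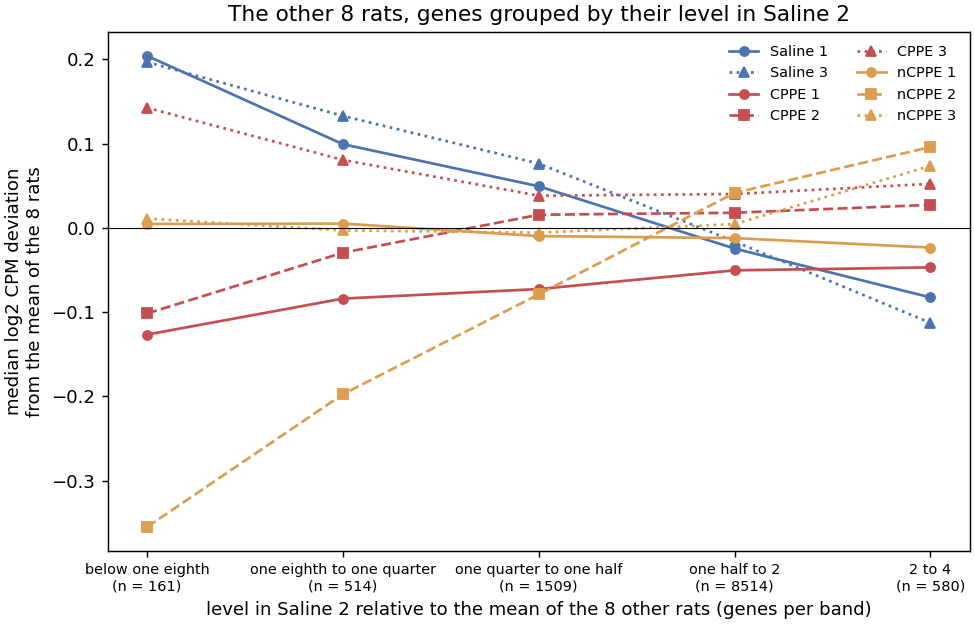
Median log2 CPM deviation from the mean of the 8 rats (vertical) for genes grouped by their level in Saline 2 relative to that mean (horizontal), with 1 line per rat. From the band below one eighth (161 members) to the band at 2 to 4 times the mean (580 genes), nCPPE 2 goes from -0.35 to 0.10 and Saline 1 from 0.20 to -0.08.

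Group differences were tested without Saline 2, because the members were selected on it. An edgeR quasi-likelihood fit covered all genes in the 8 other rats (3 CPPE, 3 nCPPE and 2 Saline rats). The mean of these 8 rats also entered the rule, so the fit was not wholly free of the selection. Without Saline 1 the rule kept 151 of the 161 members, without Saline 3 156, and without a cocaine rat 157 to 161. All 161 members were among the 15750 genes tested. A gene counted as called at a Benjamini-Hochberg adjusted p below 0.05. In each of the 4 comparisons edgeR called 0 genes (0% of genes tested) and hence 0 members.

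Cocaine rats as a whole, whatever their preference, were compared with Saline 1 and Saline 3. They had received the final 5 mg/kg dose where Saline rats received serum, so earlier exposure and that dose cannot be told apart. The fitted level was lower in the cocaine rats for 156 of 161 members (96.9%), beside 48.0% of all genes tested. The median log2 difference was -0.27 over members (quartiles -0.39 and -0.16) and 0.01 over all genes. In 55 members (34.2%) both Saline rats lay above all 6 cocaine rats, beside 5.00% of all genes tested, and in 0 members did both lie below them, beside 5.39%. At an unadjusted p below 0.05 edgeR counted 68 members, all of them lower (42.2%), beside 4.39% of genes tested that were lower, 2.30% that were higher and 6.70% in either direction. None passed adjustment, the smallest adjusted p over all genes being 0.699. DESeq2 called 4 members, all lower, of 27 genes in all, and limma-voom called 0 (unadjusted p was below 0.05 for 76 members of 1675 genes). The edgeR count of 68 depended on which rats were in the fit. With 1 cocaine rat left out it ran from 48 members (925 genes in all, without CPPE 1) to 82 (1177 genes, without nCPPE 3). It was 26 members (519 genes in all) without Saline 1 and 43 (624 genes) without Saline 3, where the lone Saline rat is assumed to vary like the other groups, and 39 (629 genes) with the replicate number as a block. For 150 members (93.2%, beside 88.9% of all genes tested) the estimate with 2 standard errors on either side stayed within a 2-fold difference. Only 2 Saline rats stand behind these values, and both lay at the upper end of the members' range.

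With Saline 2 returned to the fit, the sign of the members' difference turned. In 9 rats the median log2 difference for cocaine against Saline was 0.25, with 22 members lower and 139 higher, the selected rat then being 1 of the 3 rats in the control mean. As the members were chosen for their low level in that rat, this fit gives no test of them.

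The member with the smallest p was ENSRNOG00000002126. It had 102 and 92.1 CPM in Saline 1 and 3, 64.7, 54.8 and 73.4 CPM in CPPE, 69.2, 58.7 and 65.5 CPM in nCPPE, and 6.76 CPM in Saline 2. All 6 cocaine rats lay below Saline 1 and 3 and far above Saline 2. The log2 difference for cocaine against Saline was -0.60 ± 0.10 (SE), with an edgeR adjusted p of 0.699 and a DESeq2 adjusted p of 0.00281. Over all alternatives its adjusted p ranged from 0.00281 to 0.997, and with Saline 2 in the fit the difference was -0.07. ENSRNOG00000024703 had 32.5 and 34.3 CPM in Saline 1 and 3, 22.0, 22.3 and 22.8 CPM in CPPE, and 23.8, 29.5 and 22.7 CPM in nCPPE rats. Here nCPPE 2, the lowest rat for most members, was the highest of the cocaine rats. Its log2 difference was -0.50 ± 0.09 (SE), with adjusted p of 0.699 in edgeR and 0.0223 in DESeq2, and a range of 0.0223 to 0.997 over all alternatives. The other members that DESeq2 called in this comparison were ENSRNOG00000025539 and ENSRNOG00000061508, named here after their values were seen. The first had 25.9 and 20.3 CPM in Saline 1 and 3 and 10.7 to 16.5 CPM in cocaine rats, and the second 31.5 and 32.9 CPM against 20.5 to 26.7 CPM. Of the 5 members higher in cocaine rats, ENSRNOG00000043103 had the smallest p, with 13.1 ± 2.38 CPM (SD, n = 6) against 11.4 and 12.2 CPM, a log2 difference of 0.14 ± 0.17 (SE).

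**Figure D4:**
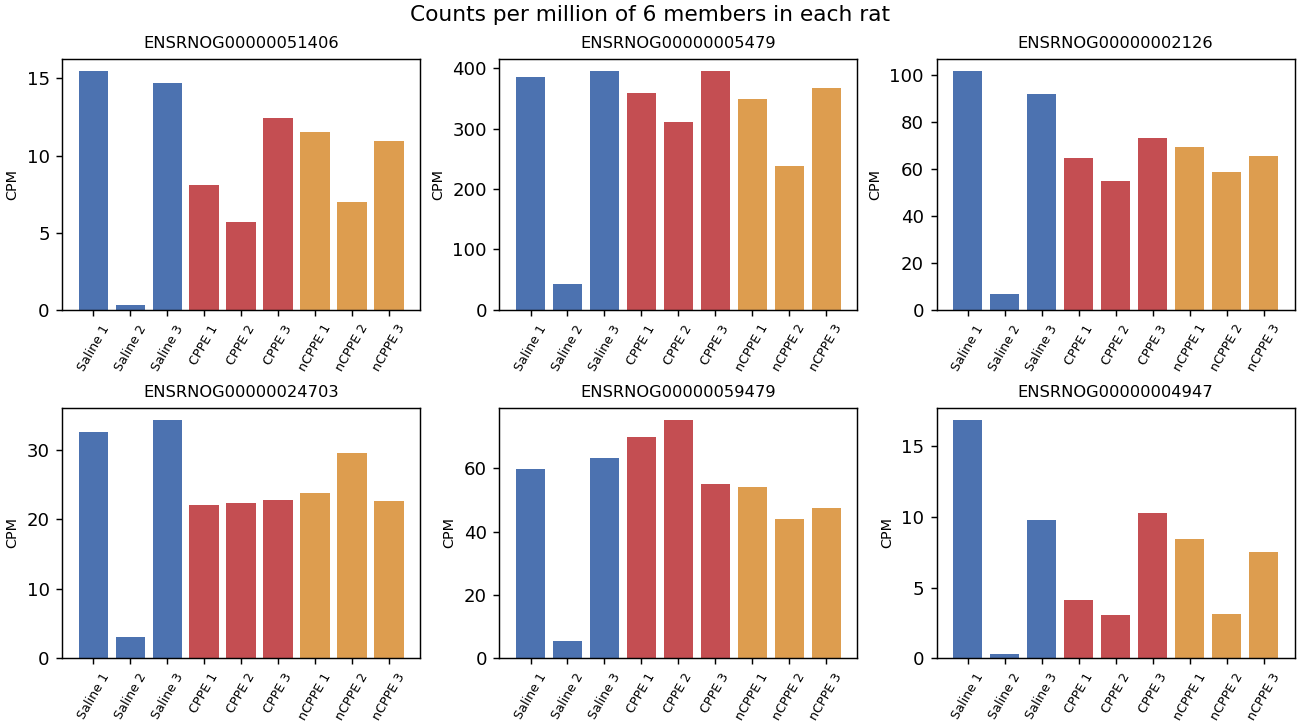
CPM (vertical, from 0) of 6 members in each of the 9 rats, with 1 bar per rat coloured by group (Saline blue, CPPE red, nCPPE orange). Saline 2 is low in each panel, ENSRNOG00000002126 and ENSRNOG00000024703 have every cocaine rat below Saline 1 and 3, and ENSRNOG00000004947 varies over 5-fold among the rats other than Saline 2.

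The 2 cocaine groups were also set against Saline 1 and 3 one by one. These comparisons share their control rats, so they are not independent of each other. CPPE rats were lower for 146 members, with a median log2 difference of -0.24, and 46 members had an unadjusted p below 0.05 in edgeR, all lower (28.6%, beside 3.68% of genes tested that were lower, 2.22% that were higher and 5.90% in either direction). Groups did not overlap for 68 lower members (42.2%, beside 11.3%) and 1 higher member (0.621%, beside 11.6%). nCPPE rats were lower for 157 members, with a median of -0.32, and 55 had an unadjusted p below 0.05, all lower (34.2%, beside 3.61% lower, 2.51% higher and 6.12% in either direction). Without overlap were 103 lower members (64.0%, beside 11.3%) and 0 higher ones, beside 13.7%. Without Saline 1 the counts at an unadjusted p below 0.05 fell to 22 members for CPPE and 25 for nCPPE. The CPPE count was 27 without CPPE 1, 23 without CPPE 2, 29 with the replicate block and 70 without nCPPE 2, which is in neither of its groups. The nCPPE count was 35 without Saline 3, 30 without nCPPE 2 and 35 with the replicate block. Adjusted p was at or above 0.825 for every gene in the first comparison and 0.787 in the second. DESeq2 called 2 members in CPPE (12 genes in all) and 1 in nCPPE (6 genes), each also among the 4 above, and limma-voom called 0 in either. At an unadjusted p below 0.05 there were 929 genes for CPPE and 964 for nCPPE in edgeR. In the CPPE comparison ENSRNOG00000024703 had the smallest p, with a log2 difference of -0.59 ± 0.10 (SE). In the nCPPE comparison ENSRNOG00000012759 came after ENSRNOG00000002126, at 6.97, 5.26 and 6.39 CPM in nCPPE against 9.68 and 9.99 CPM in Saline 1 and 3, a log2 difference of -0.67 ± 0.15 (SE).

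**Figure D5:**
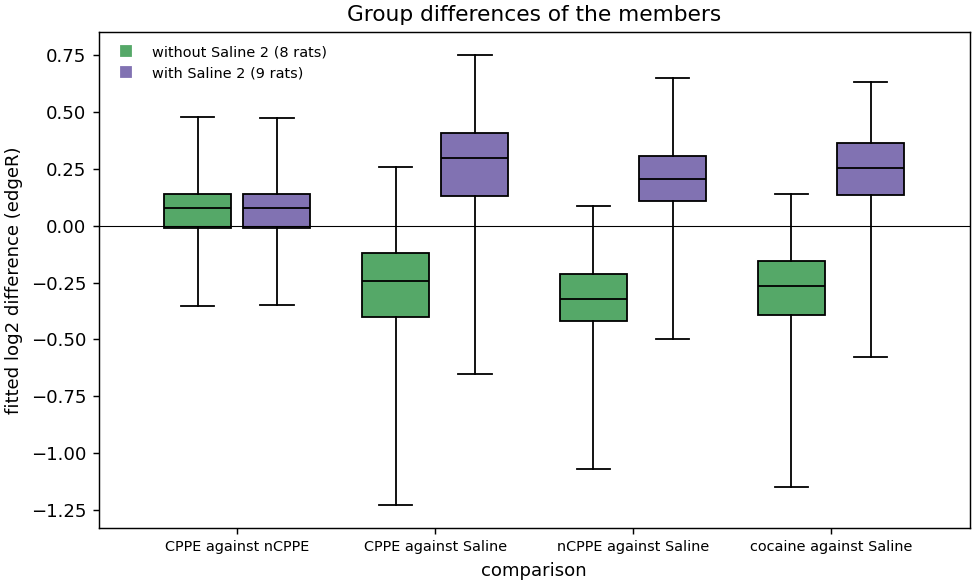
Fitted log2 differences (vertical) of the 161 members in 4 comparisons, without Saline 2 (green, 8 rats) and with it (purple, 9 rats). Boxes show median and quartiles, and whiskers the lowest and highest member. Against Saline the medians are -0.24, -0.32 and -0.27 without Saline 2 and 0.30, 0.21 and 0.25 with it, while CPPE against nCPPE is at 0.08 either way.

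CPPE against nCPPE rats asked what went with the expressed preference at equal cocaine exposure, and Saline 2 plays no part in the group means. Members were higher in CPPE for 115 and lower for 46 of 161, with a median log2 difference of 0.08 (quartiles -0.01 and 0.14), beside 0.00 over all genes tested. That median was smaller than the pooled SD of 0.16 between rats of a group. At an unadjusted p below 0.05 edgeR counted 7 members, all higher (4.35%, beside 1.73% of genes tested that were higher, 1.80% that were lower and 3.53% in either direction). Groups did not overlap for 7 members higher (4.35%, beside 3.40%) and 1 lower (0.621%, beside 3.90%). edgeR, DESeq2 and limma-voom each called 0 members, and over all genes they called 0, 1 and 0. Before adjustment 556, 475 and 565 genes, respectively, had p below 0.05. The 7 members became 4 without CPPE 2, 16 without nCPPE 1 and 14 without nCPPE 3. For 160 members (99.4%, beside 89.8% of all genes tested) the estimate with 2 standard errors on either side stayed within 2-fold. The direction depended on single rats. With 1 rat left out, its sign turned only without nCPPE 2, where the median was -0.04 and 102 members were lower in CPPE. Without CPPE 3 the median fell to 0.02, with 87 members higher and 74 lower in CPPE.

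ENSRNOG00000059479 had the smallest p of this comparison, with 70.0, 75.4 and 54.9 CPM in CPPE and 54.1, 43.9 and 47.3 CPM in nCPPE rats. The groups did not overlap, but the lowest CPPE rat was within 1 CPM of the highest nCPPE rat. Its log2 difference was 0.47 ± 0.13 (SE), with an edgeR adjusted p of 0.971 (range over alternatives 0.739 to 1.00). Saline 1 and 3 had 59.7 and 63.1 CPM, above all nCPPE rats and within the CPPE range. For ENSRNOG00000056658 the CPPE rats had 18.2, 24.4 and 22.7 CPM and the nCPPE rats 15.99, 13.8 and 18.1 CPM, which gave 0.45 ± 0.13 (SE) on the log2 scale. In the other direction ENSRNOG00000051188 had 3.92, 4.20 and 6.07 CPM in CPPE and 5.52, 6.37 and 6.16 CPM in nCPPE rats, a log2 difference of -0.35 ± 0.16 (SE), with CPPE 3 inside the nCPPE range. The CPPE rats had 10.8, 11.3 and 12.0 CPM of ENSRNOG00000029956, all below the nCPPE rats with 12.9, 13.1 and 12.4 CPM.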

How the data were processed

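Per the labels' protocols, poly(A) RNA was made into TruSeq Stranded mRNA libraries. The tools named in the submitters' processing notes are STAR, HTSeq 0.5.3 and bcl2fastq 2.18.0.12. For build, annotation and strand setting the sources used here give no entry, so counts of overlapping or duplicated genes are uncertain. The authors deposited unnormalized counts of reads for each Ensembl identifier in 36 files, 4 technical replicates for each rat (6771828 to 9961469 counts each). Replicates of a rat differed by no more than sampling noise (chi-square per degree of freedom 1.00 to 1.02) and were summed.

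CPM was 1000000 times the count over the rat's total. Group tests used edgeR 4.0.16 (R 4.3.3): filterByExpr, TMM, glmQLFit and glmQLFTest with group as the factor, over 8 rats, Benjamini-Hochberg adjustment over all genes tested. The procedure was tested on simulated counts. Alternatives were DESeq2 1.42.0, limma-voom 3.58.1 with quality weights, other scaling and filters, a replicate block, all 9 rats, and each rat left out.

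The members, and 29 marker lists, were chosen with earlier results of these data known. The lists gave no value, since 0 of 32402 identifiers matched a symbol. Members were named by rule: the 2 with the lowest relative level in Saline 2, the 2 most abundant, the 2 most and 2 least variable among the 8 rats, and the 2 with the smallest p in each direction of a comparison. As the identifiers carry no names, these replace longer lists.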

Additional observations from a re-analysis of the deposited data

Results flagged for a closer look

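For 17 named members and the members' share of counts, the 6 cocaine rats, which were given the same injections, were searched for a rat far from the rest. Chance marks about 1 in 20 of such groups, and 2 of the 18 measures were marked. ENSRNOG00000024703 was at 29.5 CPM in nCPPE 2 and at 22.0 to 23.8 CPM in the other cocaine rats, a gap of 0.758 of their range. ENSRNOG00000016289 was at 10.5 CPM in nCPPE 1 and at 11.4 to 11.8 CPM in the others, a gap of 0.667 of the range. The members' share of counts was not marked, although nCPPE 2 had the lowest.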

How the results depend on the processing

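The number of members followed its threshold, with 675 genes below 25% of the mean and 21 below 6.25%. It stayed within 1.5 times of 161 under the other settings of the rule and with single technical replicates of Saline 2. With each of the 8 rats left out, 152 to 170 genes were kept. With Saline 2 in the fit, the median log2 difference of members turned to 0.30 for CPPE, 0.21 for nCPPE and 0.25 for cocaine against Saline, and members lower to 23, 22 and 22. In that fit ENSRNOG00000024703 reversed to 0.0167 for cocaine against Saline. DESeq2 called 1, 12, 6 and 27 genes for CPPE against nCPPE and for CPPE, nCPPE and cocaine against Saline, and 0, 2, 1 and 4 members. The cause was not tested. With each rat left out edgeR called 0 genes and 0 members in every comparison. The median difference was then -0.31 to -0.21 for CPPE, -0.37 to -0.21 for nCPPE and -0.30 to -0.21 for cocaine against Saline, with 137 to 148, 148 to 159 and 146 to 159 members lower. For CPPE against nCPPE it was -0.04 (without nCPPE 2) to 0.13, with 26 to 102 members lower. ENSRNOG00000004720, at 0.04 for nCPPE against Saline, was between -0.0500 and 0.0861 with a rat left out, and reversed to -0.0500 without nCPPE 1 and to -0.00171 without Saline 3. Same-numbered CPPE and nCPPE rats had deviations correlated at 0.06, -0.43 and -0.11, and differently numbered ones at -0.31 to 0.34. So few correlations cannot settle whether rat numbers pair the samples. With limma-voom the median for CPPE against nCPPE was 0.05. With a replicate block edgeR called 0 genes, and the medians were 0.08, -0.15, -0.25 and -0.19 in the 4 comparisons. The counts of members lower, and of members at an unadjusted p below 0.05, were added for each comparison after seeing the data.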
